A study of Mus musculus with 41 samples.

Results

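The oxidative phosphorylation genes were taken by symbol from the array table: every gene whose symbol begins Nduf, Uqcr or Atp5, the succinate dehydrogenase genes, the cytochrome c oxidase genes Cox4 to Cox8, and the subunits encoded in the mitochondrial genome. The rule found 88 genes of the 13283 genes with a probe, 81 of them nuclear and 7 mitochondrial (ATP6, COX2, CYTB, ND1, ND4, ND4L and ND5), and left out 1 pseudogene. The nuclear members were 34 genes of complex I, 7 complex I assembly factors that share the Nduf prefix, 3 genes of complex II, 7 of complex III, 14 of complex IV and 16 of complex V. Of the nuclear-encoded succinate dehydrogenase genes, Sdhb, Sdhc and Sdhd were on the array table and Sdha was not analysed here.

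Oxidative phosphorylation couples electron transfer along complexes I to IV of the inner mitochondrial membrane to proton pumping, and complex V uses the resulting gradient to make ATP. Complexes I, III, IV and V each combine core subunits made from the mitochondrial genome with subunits imported from the cytosol, whereas complex II is wholly nuclear. Several complex IV subunits exist as paired isoforms, with Cox6a2, Cox7a1 and Cox8b best known from heart and skeletal muscle and Cox6a1, Cox7a2 and Cox8a from most other tissues.

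RNA was hybridised to 41 Illumina arrays in 14 groups of male C57Bl/6 mice. The thymus was dissociated and sorted into thymic epithelial cells (TEC, the CD45-EpCAM+ gate, 24 arrays) and non-epithelial stromal cells (nonTEC, the CD45-EpCAM- gate, 17 arrays). In TEC the groups were surgically castrated and sham-castrated mice of 9 to 12 months at day 4, day 7 and day 20, unoperated middle-aged mice of the same age, and unoperated young mice of 5 to 6 weeks, with 3 arrays each. In nonTEC they were castrated and sham-castrated mice at day 4 and day 7, unoperated middle-aged mice and young mice, with 3 arrays each except 2 for sham day 7. The labels name no transgene or other agent, and do not say whether a replicate was 1 animal or a pool or whether replicates came from separate animals, so p-values measure the spread between arrays, which may be technical. Levels are the deposited log2 intensities, and a change is a difference of group means on that scale. A member was called at an adjusted p under 0.05 in limma's moderated test with Benjamini-Hochberg adjustment over all genes tested. Of the members, 76 passed the filter on low values in TEC and 77 in nonTEC, and counts below are over those. The filter asked for 1 group mean above 6.73, so a member can have passed through the groups where it is high, and several means under 6.73 are pointed out beside their values.

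Promoters are shown for 5 members that recur in the results. Ndufa11, Cox6a1 and Atp5g2 all fell in middle-aged nonTEC and carry GCATGCG on both strands, letters from the core of the binding site of NRF1, a transcription factor of respiratory genes, with the overlapping matches printed in capitals. Cox8b and Cox7a1 are muscle-type complex IV isoform genes that fell in day 20 TEC. In Cox8b the capitals mark CAGCTG, an E-box of the kind bound by muscle regulatory factors, and Cox7a1 has no match to it and is in lower case throughout. Each run is the 250 bases before the gene's start, read 5′ to 3′ on the gene's strand, from RefSeq on GRCm38.p6. The positions are chr17:56717512-56717761 on the plus strand for Ndufa11, chr5:115348959-115349208 on the minus strand for Cox6a1, chr15:102671048-102671297 on the minus strand for Atp5g2, chr7:140900447-140900696 on the minus strand for Cox8b and chr7:30183921-30184170 on the plus strand for Cox7a1.
Ndufa11: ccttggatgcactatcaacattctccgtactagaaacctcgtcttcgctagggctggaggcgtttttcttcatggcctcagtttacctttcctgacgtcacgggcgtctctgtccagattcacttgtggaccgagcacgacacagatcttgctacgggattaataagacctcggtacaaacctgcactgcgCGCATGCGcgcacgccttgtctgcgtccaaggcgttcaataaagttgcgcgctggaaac
Cox6a1: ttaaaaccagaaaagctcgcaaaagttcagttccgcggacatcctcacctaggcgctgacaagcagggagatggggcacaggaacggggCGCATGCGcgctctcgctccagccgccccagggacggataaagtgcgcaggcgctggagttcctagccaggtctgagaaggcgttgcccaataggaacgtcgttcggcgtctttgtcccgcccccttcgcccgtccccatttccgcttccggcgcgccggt
Atp5g2: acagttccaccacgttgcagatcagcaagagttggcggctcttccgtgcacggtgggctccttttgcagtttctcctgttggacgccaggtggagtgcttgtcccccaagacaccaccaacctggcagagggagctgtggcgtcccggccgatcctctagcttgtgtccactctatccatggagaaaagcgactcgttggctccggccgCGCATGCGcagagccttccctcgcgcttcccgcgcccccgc
Cox8b: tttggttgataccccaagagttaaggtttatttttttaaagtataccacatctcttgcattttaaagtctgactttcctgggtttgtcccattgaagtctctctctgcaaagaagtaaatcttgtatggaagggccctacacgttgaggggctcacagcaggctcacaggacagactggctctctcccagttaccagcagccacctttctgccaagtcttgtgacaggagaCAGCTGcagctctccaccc
Cox7a1: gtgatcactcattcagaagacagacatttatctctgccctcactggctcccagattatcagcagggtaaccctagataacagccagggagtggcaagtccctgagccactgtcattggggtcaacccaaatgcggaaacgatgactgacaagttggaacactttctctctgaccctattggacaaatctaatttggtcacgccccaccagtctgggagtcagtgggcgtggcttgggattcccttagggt

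The first NRF1 match begins 59 bases before the start of Ndufa11, 161 before Cox6a1 and 41 before Atp5g2, and the E-box of Cox8b begins 19 bases before its start. Promoters were found for 70 of the 81 nuclear members, and each motif was searched on both strands without gaps or mismatches. GCATGCG was present in 9 of the 70 (12.9%), against 3.07% of all 27025 promoters. The other 6 were Ndufa6, Ndufa8, Sdhb, Atp5l, Atp5k and the assembly factor Ndufaf4. Of these, Sdhb and Atp5l also fell in middle-aged nonTEC, Ndufa6, Ndufa8 and Ndufaf4 were not called there, and Atp5k was below the filter. Members with larger falls, such as Cox6c, Atp5mpl and Ndufa3, were not among the 9. The ETS-family letters CCGGAAG, which neither contain nor are contained in the NRF1 letters, were in 13 of the 70 (18.6%), against 7.05% of all promoters. CAGCTG was in 5 of the 70 (7.14%), against 12.8% of all. These matches describe the letters in the window only, and whether members with them fell more often than others was not tested.

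The sorted fractions differed in keratin, fibroblast and erythroid markers, while Foxn1 was near the floor of the TEC arrays. Krt8, a keratin of simple epithelium, lay between 12.73 and 13.65 log2 intensity on the 24 TEC arrays, against 7.02 to 10.74 on the 17 nonTEC arrays. Pdgfra, a fibroblast receptor, lay between 4.78 and 9.11 on TEC arrays, against 12.16 to 13.32 on nonTEC arrays. Foxn1, the defining transcription factor of TEC, was at 4.43 to 5.86 in TEC, near the lowest value on those arrays (4.17). Cd3e, a thymocyte marker, reached 10.64 on TEC sham day 4 replicate 3 and 11.47 on a young nonTEC array. The mean of the 2 erythroid markers lay between 12.20 and 13.93 on nonTEC arrays, against 7.65 to 10.80 on TEC arrays. The array medians were nearly equal within a fraction (6.68 in TEC, and 6.81 to 6.82 in nonTEC), and fractions were fitted apart except where TEC and nonTEC were compared. In bulk sorted cells, fewer cells of a type and less RNA per cell cannot be told apart.

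Some members were low on a few TEC arrays within groups. Atp5pb, subunit b of the ATP synthase stalk, was at 5.82 and 5.57 log2 intensity on castrated day 4 replicates 2 and 3 and at 5.78 on middle-aged replicate 3, against 9.79 to 10.69 on the other TEC arrays except castrated day 7 replicate 3 (8.41). Cox7a2l was low on the same 4 arrays, at 7.79, 7.49, 7.67 and 9.30. A different set was low for probes of ATP6, COX2 and Ndufb9: sham day 4 replicates 1 to 3, sham day 7 replicate 3, and middle-aged replicates 1 and 2. ND1 was low on these except sham day 4 replicate 1 (10.49). For COX2, low values at sham day 7 were not confined to replicate 3 (group mean 8.07, lowest 7.47, highest 9.02). Cox6c was at 6.40 on sham day 4 replicate 3 and 7.92 on middle-aged replicate 2, against 9.35 to 11.55 on the other TEC arrays. ATP6, the proton-channel subunit of complex V, was for example at 7.47, 5.59 and 5.73 on the sham day 4 arrays and 5.16 on middle-aged replicate 2. In nonTEC, ATP6 was at 7.45 on sham day 4 replicate 3. The plot of members low on a few TEC arrays shows that the 4 arrays low for Atp5pb come from 3 groups, and that the other set holds every sham day 4 array and part of 2 further groups. Castrated day 4 replicates 2 and 3 and middle-aged replicate 3 also had the lowest scores of all TEC arrays on the second principal component, and sham day 4 replicate 3 had the highest mean level of thymocyte markers in TEC (8.85, against at most 7.35 elsewhere). These 4 are the arrays left out where results are given without the arrays that stood apart. The 6 day 20 arrays stood apart from the other 18 TEC arrays along the leading principal component of all genes, which held 35.6% of the variance.

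**Figure D1:**
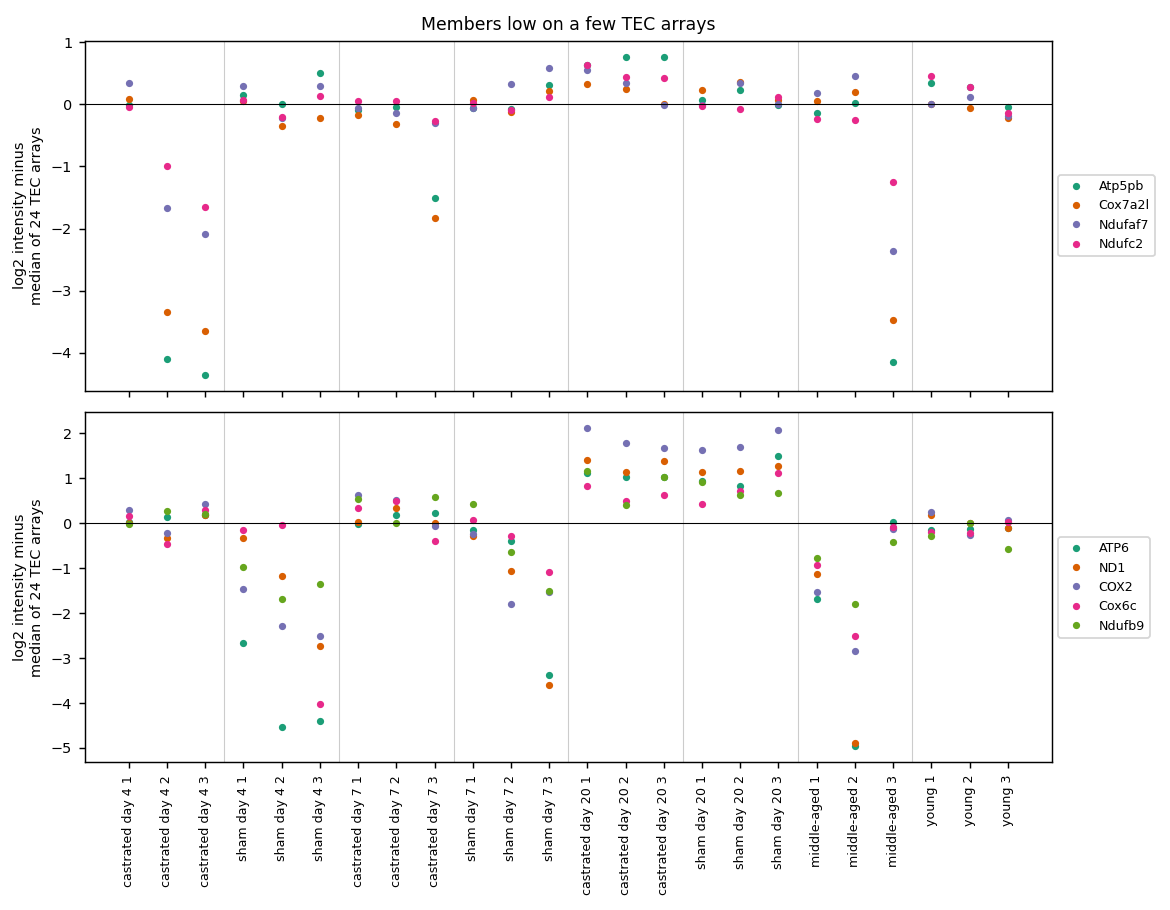
Each point is a member's log2 intensity on 1 of the 24 TEC arrays minus that member's median over the 24 (vertical axis), with arrays along the horizontal axis grouped by condition. Atp5pb, Cox7a2l, Ndufaf7 and Ndufc2 (upper panel) drop on castrated day 4 replicates 2 and 3 and middle-aged replicate 3, while ATP6, COX2 and Ndufb9 (lower panel) drop on all sham day 4 arrays and middle-aged replicates 1 and 2, and ND1 and Cox6c on part of these.

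In nonTEC, many oxidative phosphorylation genes were lower with age. Of the 77 members tested, 30 fell in middle-aged nonTEC relative to young nonTEC (39.0%) and 2 rose, where 15.5% of all genes tested fell and 16.8% rose. The difference was negative for 67 members and its median was -0.38, against 0.02 over all genes. The mean level of the 70 nuclear members tested was 10.19, 10.59 and 10.79 log2 intensity on the middle-aged arrays, against 11.03, 10.81 and 10.86 on the young arrays. The groups do not overlap, and middle-aged replicate 1 is the lowest of the 17 nonTEC arrays. Gene by gene, groups were apart in either direction for 34 of the 77 members and for 40.1% of all genes tested.

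In complex I, the entry point for electrons from NADH, 10 of the 32 nuclear genes tested fell, where 15.5% of all genes did. Ndufa1, a small membrane-arm subunit, was at 11.32, 11.09 and 11.94 log2 intensity in middle-aged nonTEC, against 12.60, 12.21 and 12.43 in young nonTEC. The difference was -0.96 ± 0.17 (SE, limma adjusted p = 0.00063) with no overlap between groups. Ndufc1, another membrane-arm subunit, was at 10.36, 10.56 and 10.96 in middle-aged nonTEC, against 11.87, 11.36 and 11.51 in young nonTEC, a difference of -0.95. Ndufa3, also of the membrane arm, was at 10.84, 10.21 and 11.54 in middle-aged nonTEC, against 12.16, 11.58 and 11.83 in young nonTEC, a difference of -0.99. For both, every middle-aged array lay below every young array. The other complex I genes called were Ndufa5 (-0.70), Ndufa7 (-0.68), Ndufa11 (-0.67), Ndufb6 (-0.61), Ndufb3 (-0.60), Ndufa12 (-0.52) and Ndufa4 (-0.45), the last of which is now counted with complex IV in mammals. Ndufa11 was at 9.89, 10.29 and 10.54 in middle-aged nonTEC, against 11.21, 10.60 and 10.92 in young nonTEC, again without overlap. Among the 6 assembly factors tested, 1 fell, Ndufaf8 (-0.76).

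In complex II, which passes electrons from succinate, Sdhc and Sdhb fell and Sdhd did not pass. Sdhc, a membrane anchor, was at 9.78, 10.39 and 10.49 log2 intensity in middle-aged nonTEC, against 10.72, 10.84 and 10.89 in young nonTEC (difference -0.60). Sdhb, the iron-sulfur subunit, was at 9.37, 10.11 and 9.57 in middle-aged nonTEC, against 9.99, 10.13 and 10.35 in young nonTEC (difference -0.47), and here the groups overlap. Its probes also differed in sign, from -0.51 to 0.17. In complex III, which reduces cytochrome c, 2 of 6 genes fell, Uqcr11 (-0.89) and Uqcr10 (-0.44), both small subunits. Uqcr11 was at 10.80, 10.82 and 11.63 in middle-aged nonTEC, against 12.22, 11.79 and 11.90 in young nonTEC, without overlap.

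In complex IV, cytochrome c oxidase, 5 of 9 nuclear genes fell and 1 rose. Cox6c, a small structural subunit, was at 10.72, 10.75 and 11.49 log2 intensity in middle-aged nonTEC, against 11.92, 12.12 and 12.20 in young nonTEC. The difference was -1.09 ± 0.19 (SE, limma adjusted p = 0.00042), and the groups do not overlap. Cox5a, a matrix-side subunit, was at 9.97, 10.87 and 10.78 in middle-aged nonTEC, against 11.65, 11.39 and 11.42 in young nonTEC (difference -0.95). Cox6a1, the broadly expressed isoform of subunit 6a, was at 11.96, 12.42 and 12.45 in middle-aged nonTEC, against 13.00, 12.63 and 12.77 in young nonTEC (difference -0.52). The groups are apart for both. Cox5b fell by 0.46 and Cox6b1 by 0.43. Cox7a2l rose: it was at 11.91, 12.52 and 12.14 in middle-aged nonTEC, against 11.55, 11.90 and 11.59 in young nonTEC (difference 0.51), with its lowest middle-aged array just above the highest young one.

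In complex V, the ATP synthase, 7 of 14 nuclear genes fell. Atp5mpl, a small membrane subunit, was at 11.55, 10.99 and 12.00 log2 intensity in middle-aged nonTEC, against 12.73, 12.35 and 12.63 in young nonTEC. The difference was -1.06 ± 0.19 (SE, limma adjusted p = 0.00054), with no overlap. Atp5g2, which encodes subunit c of the rotor ring, was at 8.33, 9.24 and 9.51 in middle-aged nonTEC, against 9.94, 9.66 and 9.71 in young nonTEC (difference -0.75), also with no overlap, though its difference was 0.02 with sham arrays of days 4 and 7 in place of the middle-aged ones. Atp5j and Atp5o, parts of the peripheral stalk, fell by 0.84 and 0.41. Atp5l and Atp5j2, small membrane subunits, fell by 0.76 and 0.56, and Atp5d, of the central stalk, by 0.55. For Atp5o the probes differed in sign, from -0.41 to 0.55. Atp5b, the catalytic beta subunit, did not pass.

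The mitochondrially encoded members moved in both directions in nonTEC. COX2, the oxidase subunit that accepts electrons from cytochrome c, was at 10.13, 10.55 and 10.74 log2 intensity in middle-aged nonTEC, against 11.75, 12.33 and 12.63 in young nonTEC. Its difference, -1.77 ± 0.32 (SE, limma adjusted p = 0.00068), was the most negative among the 77 members tested. ND1 and ND4, membrane-arm core subunits of complex I, fell by 0.64 and 0.32. ND5, the distal pump subunit of complex I, rose by 1.60 ± 0.29 (SE, limma adjusted p = 0.00073). It was at 7.85, 7.79 and 8.63 in middle-aged nonTEC, against 7.17, 6.07 and 6.22 in young nonTEC, whose mean is under 6.73. The groups do not overlap for any of these 4, and ATP6 (-0.68) and CYTB (-0.05) did not pass. Nor did ND4L, which averaged 6.34 ± 0.41 in middle-aged nonTEC and 7.33 ± 0.15 in young nonTEC (SD, n = 3 each). Mitochondrial transcripts derive from long shared precursors, and each of these values rests on an array probe.

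**Figure D2:**
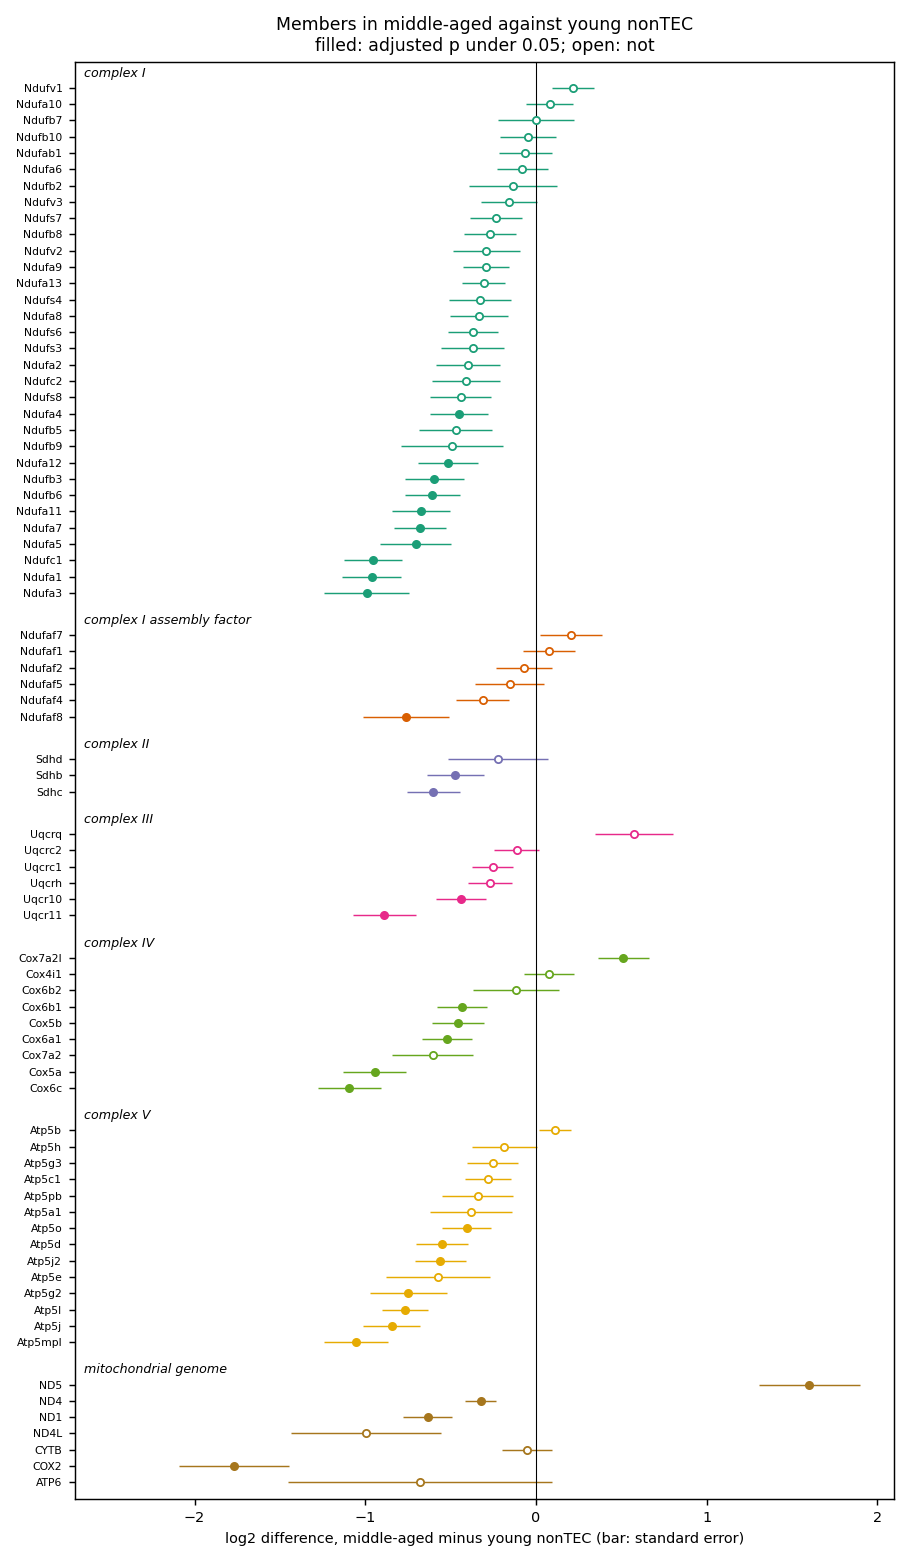
Each point is the log2 difference of 1 of the 77 members tested, middle-aged minus young nonTEC, with its standard error, grouped by complex; filled points passed at an adjusted p under 0.05. Filled points lie left of 0 except Cox7a2l (0.51) and ND5 (1.60).

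Related lists moved to different extents in the same comparison, where 15.5% of all genes fell and 16.8% rose. The large and small subunit proteins of the mitochondrial ribosome fell in 20 of 69 genes tested with none higher (median difference -0.32), and mitochondrial import genes fell in 5 of 14 with 1 higher, led by the small outer-membrane translocase subunits Tomm7 (-1.41) and Tomm6 (-1.02). Complex IV assembly genes fell in 3 of 16, with Cox17, the copper chaperone, at -0.92. Of the citric acid cycle genes, 4 of 13 fell (Fh1 -0.66, Dlst -0.64, Mdh2 -0.51 and citrate synthase Cs -0.50) and Idh3a rose (0.43). The glycolysis list had 4 of 14 lower and 1 higher. Of the 17 regulators of mitochondrial transcription and biogenesis tested, 0 were called by limma after adjustment. Cytosolic ribosomal protein genes had 6 of 52 lower and 4 higher, with a median of -0.06.

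Markers of other cells and of proliferation moved with the nonTEC ageing result. Thymocyte markers were lower in 6 of 7 tested, with a mean level over the list of 6.56 to 7.46 log2 intensity on middle-aged arrays, against 7.88 to 8.86 on young arrays. TEC markers were lower in 5 of 7 and higher in 1, with a mean level of 6.14 to 7.09 on middle-aged arrays, against 7.42 to 8.29 on young arrays. Cell cycle genes were lower in 12 of 13, with a mean level of 6.33 to 6.79 on middle-aged arrays, against 7.98 to 8.06 on young arrays. With the thymocyte mean of each array as a covariate, 14 members were called (11 lower and 3 higher), where 13% of all genes were, and the median difference was -0.25. COX2 (-1.36), Ndufa3 (-1.07), Atp5mpl (-1.01), Cox6c (-0.97), Ndufa1 (-0.93), Ndufc1 (-0.91), ND5 (1.49) and Cox7a2l (0.70) were among those 14. This fit was added after seeing the data. Since the thymocyte means of the ages do not overlap, it cannot separate age from thymocyte content. Fibroblast markers were lower in 5 of 10, with a mean level of 11.68 to 12.20 on middle-aged arrays, against 12.38 to 12.61 on young arrays, also without overlap. Endothelial markers were lower in 2 of 8 and higher in 1, with a mean level of 8.45 to 9.30 on middle-aged arrays, against 8.85 to 9.34 on young arrays. Pericyte and smooth muscle markers were lower in 1 of 5. Erythroid markers had a mean level of 13.42 to 13.57 on middle-aged arrays, against 13.62 to 13.93 on young arrays, also without overlap. The part of TEC, fibroblasts, endothelium, erythroid cells and proliferation in the result was not tested. The count was 20 without middle-aged replicate 1, 19 without young replicate 1, and 15 when only the 6 arrays compared entered the fit.

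Sham-operated and unoperated middle-aged nonTEC overlapped in the level of these genes. The mean of the 70 nuclear members was 10.85 ± 0.13 log2 intensity at sham day 4 (SD, n = 3) and 10.83 ± 0.02 at sham day 7 (n = 2), against 10.52 ± 0.31 in unoperated middle-aged nonTEC (n = 3). The sham arrays had a mean thymocyte marker level of 6.48 to 7.16 and a mean cell cycle level of 6.26 to 6.65, within or below the ranges of the unoperated middle-aged arrays. Of the 77 members, 65 had a positive difference, sham minus middle-aged, with a median of 0.32. Yet 0 members were called by limma (35 at an unadjusted p under 0.05), where 0.283% of all genes were called, and 27 were called as higher without middle-aged replicate 3 (4.54% of all genes were called there). With the sham groups in place of the unoperated one, 12 members differed from young nonTEC (8 lower and 4 higher), with a median of -0.08, where 29.6% of all genes were called.

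Castration did not change any member past the threshold in nonTEC. At day 4, 0 of 77 members were called by limma (5 at an unadjusted p under 0.05), where 6.31% of all genes were called, although 70 members had a positive difference and the median was 0.13, against -0.04 over all genes. The mean of the nuclear members was 11.02 ± 0.02 log2 intensity in castrated nonTEC, against 10.85 ± 0.13 in sham nonTEC (SD, n = 3 each). Marker levels differed between the same arrays. Castrated arrays were higher for thymocyte (7.27 to 9.10, against 6.48 to 6.80), TEC (7.01 to 7.49, against 6.18 to 6.34) and cell cycle lists (6.86 to 8.62, against 6.26 to 6.35). They were lower for fibroblast markers (11.75 to 11.90, against 11.99 to 12.16). The part of these lists in the member differences was not tested. At day 7, 0 members were called (2 at an unadjusted p under 0.05), where 0.438% of all genes were called, and the mean was 10.80 ± 0.17 in castrated nonTEC (n = 3), against 10.83 ± 0.02 in sham nonTEC (n = 2). Against unoperated middle-aged nonTEC in place of sham, 28 members were called at day 4, where 10.5% of all genes were, and 17 at day 7, where 12.5% were.

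**Figure D3:**
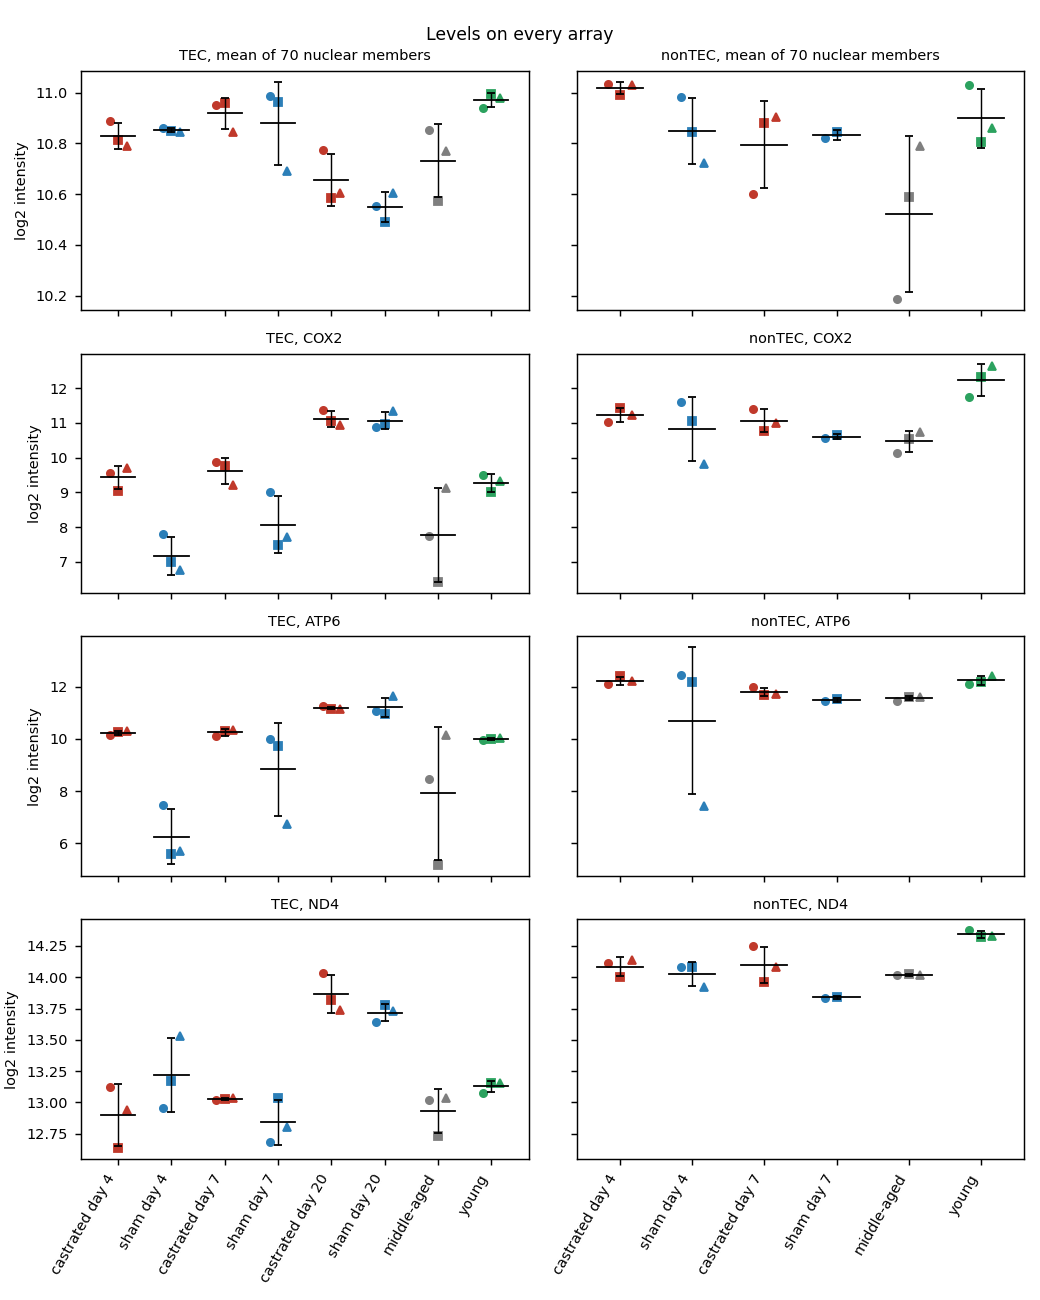
Log2 intensity on every array, with TEC at left and nonTEC at right, for the mean of the 70 nuclear members tested in each fraction and for COX2, ATP6 and ND4; marker shapes are replicate numbers and bars the group mean ± SD. The nuclear mean is lowest in day 20 TEC (10.65 and 10.55) and in middle-aged nonTEC (10.52), and the 3 mitochondrial probes shown are highest among TEC groups at day 20.

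In TEC, the ageing comparison held few calls among these genes. Of 76 members tested, 3 fell in middle-aged relative to young TEC and 1 rose, where 6.88% of all genes fell and 11.9% rose. The difference was negative for 65 members, with a median of -0.16, against 0.01 over all genes. Cox5a was at 11.53, 10.94 and 11.75 log2 intensity in middle-aged TEC, against 12.33, 11.86 and 11.96 in young TEC (difference -0.64, limma adjusted p = 0.021). Atp5o was at 12.55, 11.48 and 12.51 in middle-aged TEC, against 12.87, 12.67 and 12.77 in young TEC (difference -0.59). Both sets of groups are apart, with middle-aged replicate 2 the lowest for each. Groups were apart in either direction for 15 of the 76 members and for 26.8% of all genes tested. COX2 was at 7.74, 6.42 and 9.13 in middle-aged TEC, against 9.50, 9.00 and 9.32 in young TEC (difference -1.51), and the groups overlap. Cox8b, the muscle-type isoform of subunit 8, rose: it was at 9.29, 8.68 and 9.18 in middle-aged TEC, against 8.19, 8.42 and 8.20 in young TEC (difference 0.78, limma adjusted p = 0.031), without overlap. Leaving out 1 array in turn gave 0 to 8 calls: 0 without young replicate 1, 1 without young replicate 2, young replicate 3 or middle-aged replicate 2, and 8 without middle-aged replicate 3. No member was called when only these 6 arrays entered the fit (14 had an unadjusted p under 0.05 in the fit of all TEC arrays). Between sham TEC of days 4 and 7 and unoperated middle-aged TEC, 2 of 76 members were called, both higher in sham, where 3.01% of all genes were called. They were Sdhb (0.68) and Atp5h, a peripheral stalk subunit of complex V (0.59).

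At day 4 after surgery, 4 of 76 members were higher and 1 was lower in castrated relative to sham TEC, where 2.33% of all genes were higher and 1.29% lower. ATP6 was at 10.15, 10.26 and 10.30 log2 intensity in castrated TEC, against 7.47, 5.59 and 5.73 in sham TEC. COX2 was at 9.56, 9.04 and 9.69 in castrated TEC, against 7.80, 6.98 and 6.76 in sham TEC. In both cases all 3 sham arrays lie below every castrated array, and these sham arrays are among those on which the probe was low. Ndufb9, a membrane-arm subunit of complex I, was at 6.01, 6.30 and 6.24 in castrated TEC, against 5.05, 4.33 and 4.68 in sham TEC (difference 1.50). Atp5e, the epsilon subunit, was at 6.40, 6.90 and 7.45 in castrated TEC, against 6.01, 4.57 and 4.43 in sham TEC. Both Ndufb9 means and the sham means of ATP6 and Atp5e are under 6.73. No sham or unoperated TEC group had an Atp5e mean above 6.73 (highest 6.67, at sham day 7). Atp5e thus passed the filter through castrated groups alone, and its call as higher is in part built into the filter. Groups were apart in either direction for 15 of the 76 members and for 22.9% of all genes tested. Atp5c1, the gamma subunit that forms the turning shaft of the ATP synthase, fell. It was at 11.90, 11.95 and 12.16 in castrated TEC, against 12.53, 12.55 and 12.77 in sham TEC (difference -0.61 ± 0.09 SE, limma adjusted p = 0.0078), without overlap. Against unoperated middle-aged TEC in place of sham, with only the 6 arrays compared, or without 4 TEC arrays that stood apart, 0 members were called, and leaving out 1 array in turn gave 0 to 11 calls: 0 without castrated replicate 2, 1 without castrated replicate 3, sham replicate 2 or sham replicate 3, and 11 without castrated replicate 1. At day 7, 0 of 76 members were called by limma (9 at an unadjusted p under 0.05), where 0.171% of all genes were called.

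At day 20, 8 of 76 members were higher in castrated relative to sham TEC and 0 were lower, where 13.1% of all genes were higher and 9.4% lower, so the share of members called (10.5%) was near or below that of all genes. Of these 8, 4 were complex IV genes, of which 11 were tested. Cox4i1, the largest nuclear subunit of the oxidase, was at 13.05, 12.94 and 12.72 log2 intensity in castrated TEC, against 12.42, 12.33 and 12.34 in sham TEC. Its difference was 0.54 ± 0.12 (SE, limma adjusted p = 0.0039), and the groups do not overlap. Cox6a2, the muscle-type isoform of subunit 6a, was at 5.96, 5.94 and 6.05 in castrated TEC, against 5.33, 5.00 and 4.87 in sham TEC (difference 0.91), and both means are under 6.73. Cox5a was at 12.31, 12.28 and 12.21 in castrated TEC, against 11.82, 11.57 and 11.87 in sham TEC (difference 0.52). Cox5b, the zinc-binding subunit, had a difference of 0.33. Every castrated array was above every sham array for all 8 genes. Groups were apart in either direction for 22 of the 76 members, and for 58.5% of all genes tested. Ndufab1, the mitochondrial acyl carrier protein bound to complex I, was at 11.75, 11.55 and 11.49 in castrated TEC, against 11.16, 11.10 and 11.21 in sham TEC (difference 0.44). Ndufb8 (0.32), Atp5c1 (0.29) and the catalytic subunit Atp5b (0.18) had smaller differences. Cycs, cytochrome c itself, was higher by 0.63 and Cox17 by 0.68.

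Beside these, 7 of 14 glycolysis genes were higher and 1 was lower in castrated TEC at day 20 (median difference 0.40), with lactate dehydrogenase Ldha at 0.87. Over all genes tested, 13.1% were higher and 9.4% lower. Striated muscle markers were higher in 3 of 3 tested, with a list mean of 5.67 to 5.99 log2 intensity in castrated TEC, against 5.15 to 5.19 in sham TEC. Cell cycle genes were higher in 4 of 12, with a list mean of 7.78 to 7.84 in castrated TEC, against 7.09 to 7.30 in sham TEC. Erythroid markers were higher in 2 of 2, TEC markers in 1 of 11 and pericyte and smooth muscle markers in 1 of 6, while 0 of 6 fibroblast, 0 of 5 endothelial and 0 of 4 thymocyte markers were called by limma. The list means did not overlap for TEC markers (10.69 to 10.83 in castrated TEC, against 10.42 to 10.51 in sham TEC) or thymocyte markers (6.40 to 6.55, against 5.76 to 6.07). They also did not overlap for fibroblast markers (6.73 to 6.77 in castrated TEC, against 6.45 to 6.54 in sham TEC) or for pericyte and smooth muscle markers (7.71 to 7.85, against 7.26 to 7.50). The part of all these lists in the member calls was not tested. Leaving out 1 array in turn gave 2 to 6 calls: 2 without castrated replicate 1 or sham replicate 2, 3 without sham replicate 3, 4 without castrated replicate 2 and 5 without sham replicate 1. Unoperated middle-aged TEC in place of sham gave 37 calls (11 higher and 26 lower), where 51% of all genes were called, and the differences of Cox6a2 (-1.94), Cox4i1 (-0.25), Ndufab1 (-0.38) and Ndufb8 (-0.17) were then negative.

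The castration difference itself differed between days for 5 members by limma's F test over the 3 days, where 17% of all genes tested did. For Ndufab1 it was -0.08, -0.10 and 0.44 at days 4, 7 and 20, for Ndufb8 -0.19, -0.05 and 0.32, and for Cox4i1 -0.05, -0.14 and 0.54. For Cox6a2 it was -0.62, -0.45 and 0.91, and for Atp5c1 -0.61, -0.07 and 0.29. All 5 were negative at day 4 and positive at day 20, and only Atp5c1 passed at both.

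The day 20 arrays differed from those of days 4 and 7 in both surgical groups. In castrated TEC, 30 of 76 members were lower at day 20 (39.5%) and 5 were higher, where 29.8% of all genes were lower and 18.4% higher. The median difference was -0.22, against -0.09 over all genes. In sham TEC, 41 were lower (53.9%) and 6 higher, where 34.1% of all genes were lower and 23.7% higher, with a median of -0.32, against -0.12 over all genes. The same 27 members were lower in both, which is 90% of the 30 and 65.9% of the 41, and these comparisons share no array. The same overlap was not counted over all genes, so it shows nothing particular to these members. The labels give no batch, so day 20 and any batch of those arrays cannot be told apart.

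By role, 16 of 31 nuclear complex I genes were lower at day 20 in castrated TEC and 23 of 31 in sham TEC. Of all genes, 29.8% and 34.1% were lower. Complex V had 3 of 14 lower in castrated TEC and 6 of 14 in sham TEC, complex IV 4 of 11 and 6 of 11, and complex III 3 of 6 and 2 of 6. The share in complex V in castrated TEC was under that of all genes. Complex IV in castrated TEC and complex III in sham TEC were near it. Ndufc1 fell by 0.78 in castrated TEC and by 0.87 in sham TEC, and Ndufs8, a subunit that carries iron-sulfur clusters, by 0.76 and 0.82. Uqcrc1, a core protein of complex III, fell by 0.52 in castrated TEC and 0.78 in sham TEC, and Atp5d by 0.67 and 0.69. Ndufaf5, an assembly factor that modifies a core subunit, fell by 1.05 in castrated TEC and 0.95 in sham TEC, although its probes differed in sign. Of the called members with several probes, the probes differed in sign for 6 of 14 in castrated TEC (Atp5pb, Ndufa5, Ndufaf4, Ndufaf5, Ndufs6 and Ndufv3) and for 5 of 16 in sham TEC, the same genes without Atp5pb.

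The muscle-type isoform genes of complex IV were low at day 20. Cox6a2 was at 5.96, 5.94 and 6.05 log2 intensity in castrated TEC at day 20, against 6.74 to 7.79 on the 6 castrated arrays of days 4 and 7 (difference -1.49). In sham TEC it was at 5.33, 5.00 and 4.87 at day 20, against 7.77 to 8.36 on the 6 arrays of days 4 and 7 (difference -2.94). Day 20 arrays lie below all earlier arrays in both. The day 20 means of Cox6a2 and Cox7a1 are under 6.73, so both genes passed the filter through other groups and their differences are given as a description. Both genes remain in the counts of lower members above, which lean on the filter to that extent. Cox7a1 was at 5.86, 5.75 and 5.68 in castrated TEC and 5.55, 5.28 and 5.52 in sham TEC at day 20, against 6.58 to 7.63 on all other TEC arrays (differences -1.27 and -1.53). Cox8b was at 7.99, 7.40 and 7.43 in castrated TEC at day 20, against 8.81 to 9.47 at days 4 and 7 (difference -1.43). In sham TEC it was at 7.83, 7.46 and 8.03, against 8.30 to 9.45 (difference -1.13). No day 20 array overlaps those of days 4 and 7 in its own surgical group for either gene. Young TEC arrays lay at 7.06 to 7.61 for Cox6a2 and 8.19 to 8.42 for Cox8b. Of their counterparts in other tissues, Cox6a1 did not pass in castrated TEC and fell by 0.77 in sham TEC, and Cox7a2 did not pass in either.

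**Figure D4:**
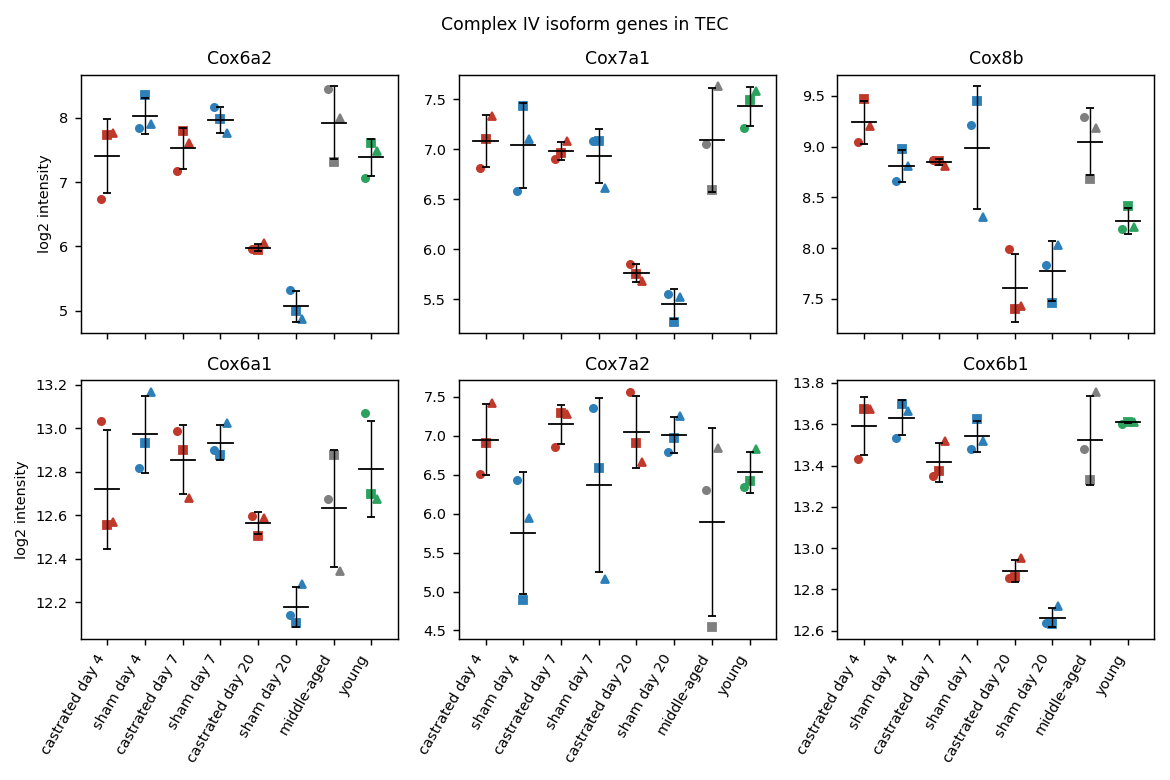
Log2 intensity of 6 complex IV isoform genes on every TEC array by group; marker shapes are replicate numbers and bars the group mean ± SD. Cox6a2 and Cox7a1 are lowest at day 20, with Cox6a2 between 5.94 and 6.05 in castrated and between 4.87 and 5.33 in sham TEC.

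Of the 6 mitochondrial members tested, 2 were higher at day 20 in castrated TEC (ND4 and COX2) and 4 in sham TEC (ND4, COX2, ATP6 and ND1), and none was lower by limma's test. CYTB (0.54 in castrated and 0.74 in sham TEC) and ND5 (-0.12 and -0.46) did not pass. ND4 was at 14.03, 13.82 and 13.74 log2 intensity in castrated TEC and 13.64, 13.78 and 13.73 in sham TEC at day 20, against 12.63 to 13.53 on the other TEC arrays. It rose in both (0.90 and 0.69), and the day 20 arrays lie above all others. COX2 was at 11.37, 11.04 and 10.94 in castrated TEC (difference 1.59) and 10.89, 10.96 and 11.34 in sham TEC (difference 3.44). ATP6 was at 11.24, 11.15 and 11.15 in castrated TEC, where it did not pass, and at 11.07, 10.95 and 11.63 in sham TEC (difference 3.67). The sham differences of ATP6, COX2, ND1 (2.72), Ndufb9 (1.69) and Cox6c (1.67) include the low day 4 and day 7 sham arrays described above. Both earlier sham means of Ndufb9 are under 6.73. Ndufb9 passed the filter through the day 20 groups alone (means of 6.89 in castrated and 6.76 in sham TEC). Its call as higher is thus in part built into the filter. Likewise Atp5pb (2.41), Cox7a2l (1.73) and Ndufc2 (0.97) were called higher in castrated TEC, where they were low on castrated day 4 replicates 2 and 3. Without the 4 arrays that stood apart, the calls were 30 lower and 4 higher in castrated TEC and 41 lower and 9 higher in sham TEC.

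**Figure D5:**
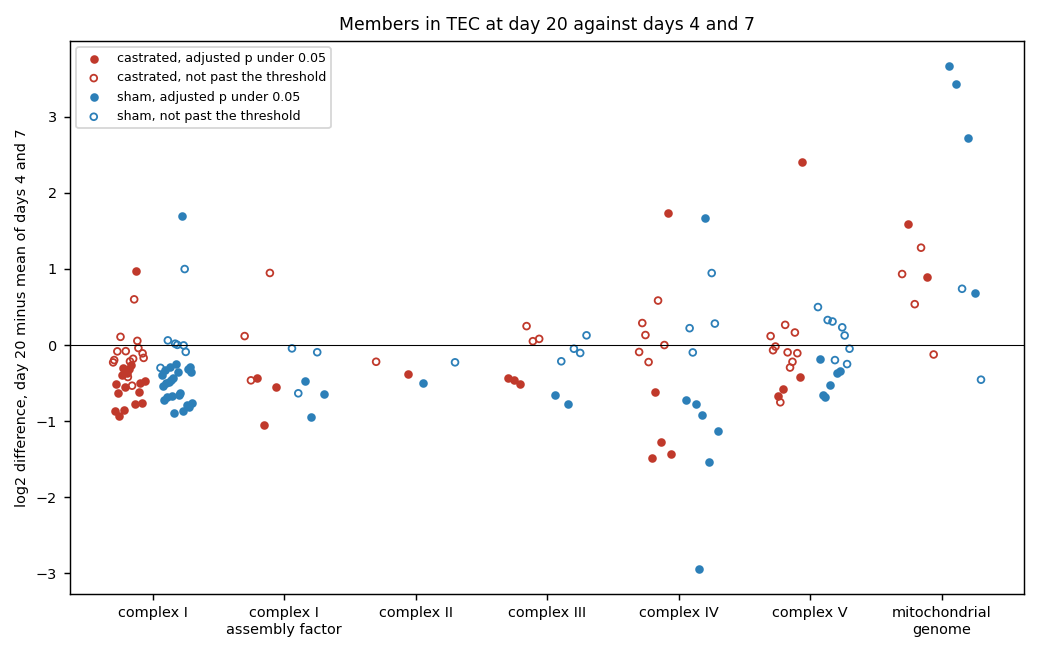
Each point is a member's log2 difference in TEC at day 20 against days 4 and 7, by complex, for castrated and sham TEC. Nuclear members lie mostly below 0, with Cox6a2 lowest (-1.49 in castrated and -2.94 in sham TEC), and the mitochondrial members mostly above 0.

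Other lists were counted at day 20 as well. Of all genes tested, 29.8% were lower and 18.4% higher in castrated TEC, and 34.1% and 23.7% in sham TEC. Mitochondrial ribosomal protein genes were lower in 38 of 67 tested in castrated TEC and 45 of 67 in sham TEC, with 0 higher in either. Cytosolic ribosomal protein genes were lower in 15 of 52 in each, a share under that of all genes. Glycolysis genes were lower in 4 of 14 and higher in 7 in castrated TEC, and lower in 6 and higher in 1 in sham TEC. Striated muscle markers were higher in 2 of 3 tested in castrated TEC and lower in 3 of 3 in sham TEC. In castrated TEC the mean of the list was 5.67 to 5.99 at day 20, against 5.64 to 6.06 at days 4 and 7. In sham TEC it was 5.15 to 5.19 at day 20, against 5.79 to 6.34. Thymocyte markers were lower in 2 of 4 in castrated TEC and 3 of 4 in sham TEC, and pericyte and smooth muscle markers in 3 of 6 and 4 of 6. Endothelial markers were lower in 2 of 5 in each, with a mean level of 5.66 to 5.79 at day 20 in castrated TEC, against 6.07 to 7.45 at days 4 and 7, and of 5.68 to 5.91 at day 20 in sham TEC, against 5.78 to 8.37. TEC markers were higher in 2 of 11 and lower in 1 in castrated TEC, and higher in 2 and lower in 3 in sham TEC. Their mean level was 10.69 to 10.83 at day 20 in castrated TEC, against 10.09 to 10.38 at days 4 and 7, and 10.42 to 10.51 in sham TEC, against 10.08 to 10.47. Fibroblast markers were lower in 2 of 6 and higher in 1 in castrated TEC, and lower in 3 and higher in 1 in sham TEC. The part of all these cells in the member results was not tested.

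The fractions were also compared, TEC against nonTEC, in mice of the same age. The part of other cells in these differences, such as erythroid cells in nonTEC, was not tested. In middle-aged mice, 40 of 80 members were higher in TEC than in nonTEC and 23 were lower, where 28.5% of all genes were higher and 41.7% lower. In young mice, 26 were higher and 15 lower, where 24.3% of all genes were higher and 42.1% lower. The median over all genes was -0.24 in middle-aged and -0.30 in young mice, and quantile normalization moved it by 0.35 and 0.37. After it, 49 members were higher and 20 lower in middle-aged TEC, and 53 higher and 12 lower in young TEC. The muscle-type isoform genes Cox8b, Cox6a2 and Cox7a1 passed the filter through TEC alone, and ND4L, Sdhd, Ndufb2 and Cox6b2 through nonTEC alone. At both ages the isoform genes Cox8b, Cox6a2 and Cox7a1 are among the higher members counted above, and ND4L and Sdhd among the lower. Their calls are thus in part built into the filter, and the levels of these isoform genes are given as a description. Ndufb2 averaged 5.52 in young TEC, against 6.92 in young nonTEC, a difference that leans on the filter likewise. Cox6b2 did not pass at either age. Cox8b was at 8.19, 8.42 and 8.20 log2 intensity in young TEC, against 5.16, 5.10 and 5.07 in young nonTEC. Cox6a2 was at 7.06, 7.61 and 7.48 in young TEC, against 5.06, 5.50 and 6.26 in young nonTEC, and Cox7a1 at 7.21, 7.49 and 7.58 in young TEC, against 6.42, 5.90 and 5.77 in young nonTEC. In middle-aged mice, Cox8b was at 9.29, 8.68 and 9.18 in TEC, against 4.87, 4.71 and 5.48 in nonTEC. TEC arrays lie above nonTEC arrays of the same age for all 3 genes. Groups were apart in either direction for 75.2% of all genes tested in young mice and 61.3% in middle-aged mice.

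Ndufa11 (1.14), Cox6b1, a subunit on the intermembrane face of the oxidase (1.13), and Atp5g2 (1.06) were also higher in young TEC than in young nonTEC. Lower in young TEC were COX2 (-2.96), ATP6 (-2.24), ND1 (-2.22) and ND4 (-1.21) of the mitochondrial genome, and Atp5a1, the alpha subunit that alternates with beta in the ATP synthase head (-1.77). ND4L was at 4.66, 4.54 and 4.90 in young TEC, against 7.22, 7.50 and 7.29 in young nonTEC, and passed the filter through nonTEC alone. CYTB (-0.21) and ND5 (1.02) did not pass in young mice. In middle-aged mice CYTB was lower in TEC (-1.36) and ND5 (-0.72) did not pass. With quantile normalization COX2 (-2.54) and ND4 (-0.80) were still lower, ATP6 had a limma adjusted p of 0.075, ND5 was higher (1.38, limma adjusted p = 0.018) and CYTB had a difference of 0.21 in young mice.

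The ageing difference itself differed between fractions for 6 of 80 members by limma's interaction term, where 11.2% of all genes tested differed. Ndufc1 changed by -0.06 in TEC and -0.95 in nonTEC, Ndufa7 by 0.08 and -0.68, Ndufa11 by 0.01 and -0.67, and Atp5l by -0.08 and -0.76. For Uqcrq, a small complex III subunit, the differences were -0.58 in TEC and 0.57 in nonTEC. For Cox6a2 they were 0.54 in TEC and -0.97 in nonTEC, where all its levels were under the filter, so its call rests in part on those low values. Of these 6, the term was positive for 5, and 3 to 16 members were called when 1 array was left out in turn. The castration difference averaged over days 4 and 7 differed between fractions for 2 of 80 members, where 6.04% of all genes did: COX2 (1.90 in TEC and 0.43 in nonTEC) and Atp5c1 (-0.34 in TEC and 0.09 in nonTEC).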

How the data were processed

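RNA from sorted TEC and nonTEC was labelled as biotinylated cRNA for Illumina arrays, per the labels' protocols. The authors deposited log2 intensities for 24671 probes on 41 arrays; limma is named in the submitters' processing notes, and the sources used here do not state a background correction or normalization. Of the probes, 20825 list 1 gene (20799 matched in RefSeq), 11 list several and 3835 list none. For each gene, the probe with the highest mean over the arrays fitted stood for it; the 88 members had 121 probes, and 26 members had several. Genes were kept if a group mean exceeded the median of all values (6.73). limma 3.58.1 (R 4.3.3) was fitted with group means and a mean-variance trend to all TEC arrays (8195 genes, 16 residual degrees of freedom), all nonTEC arrays (7771 genes, 11) or all arrays (8487 genes, 27), with Benjamini-Hochberg adjustment over all genes tested. Below the filter were Atp5k, Cox6b2, Cox7b, ND4L, Ndufaf3, Ndufb11, Ndufb2, Ndufb4 and Sdhd in TEC, and Atp5k, Atp5md, Cox4i2, Cox6a2, Cox7a1, Cox7b, Cox8b, Ndufaf3, Ndufb11, Ndufb4 and Uqcrfs1 in nonTEC. In simulated data for the TEC ageing comparison with 200 of 8195 genes changed, 20.9%, 70.1% and 97% of changes of 0.5, 1 and 2 on the log2 scale were recovered, with 7 false calls; in nonTEC (7771 genes) 22.4%, 74.6% and 97% were, with 5 false calls.

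The members and lists were chosen with earlier results of these data known. Named were, in each comparison, called members whose groups do not overlap, up to 6 in each direction by size (called members where days were averaged), the mitochondrial members, the complex II subunits, the tissue isoforms and up to 3 genes of each other list; other called members are given as the rest of a count. Alternatives were no filter and a stricter one (7.84), quantile normalization, centring of arrays, the mean of all probes, a replicate block, only the arrays compared, unoperated mice as control and leaving out each array. Sham mice in place of unoperated ones, the thymocyte covariate and leaving out 4 TEC arrays were added after seeing the data. The number of arrays limits the precision. Python 3.11.15 with pandas 2.3.3 and matplotlib 3.10.9 was used for tables, promoters and figures.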

Additional observations from a re-analysis of the deposited data

Results flagged for a closer look

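In 6 members the ageing difference differed between the fractions by limma's interaction term, where 11.2% of all genes tested did. The difference, middle-aged minus young, in TEC minus that in nonTEC was 0.68 for Ndufa11, 0.76 for Ndufa7, 0.89 for Ndufc1, 1.51 for Cox6a2, 0.68 for Atp5l and -1.15 for Uqcrq. Cox6a2 lay under the filter on low values in nonTEC, so its value rests in part on low levels. With only the arrays compared in the fit, 0 members were called. In 2 members the castration difference averaged over days 4 and 7 differed between the fractions, where 6.04% of all genes did: TEC minus nonTEC was 1.47 for COX2 and -0.43 for Atp5c1. The sham day 4 TEC arrays on which the COX2 probe was low enter the first of these, and their part in it was not tested. In 5 members the castration difference in TEC differed between days 4, 7 and 20 by limma's F test, where 17% of all genes did, with adjusted p of 0.000296 for Atp5c1, 0.0166 for Ndufb8, 0.0176 for Cox4i1, 0.0188 for Cox6a2 and 0.0317 for Ndufab1. Both day 20 means of Cox6a2 lay under the same filter. No group held 4 or more arrays, so single arrays were not tested as outliers.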

How the results depend on the processing

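The calls at day 20 against days 4 and 7 (35 members in castrated TEC and 47 in sham TEC) stayed within 1.5 times under every alternative run, at 26 to 36 and 39 to 47 when 1 array was left out in turn. Leaving out 1 array gave 19 to 39 calls for nonTEC ageing, 0 to 8 for TEC ageing, 0 to 11 for castration in TEC at day 4, 2 to 6 at day 20, 1 to 10 for its change between days, 0 to 1 for castration in nonTEC at day 4, 0 to 27 for sham against middle-aged nonTEC, 0 to 4 for the same in TEC, 3 to 16 for the ageing difference between fractions and 0 to 6 for the castration difference between fractions. With only the arrays compared, the counts were 15 for nonTEC ageing, 0 for TEC ageing, 0 for castration in TEC at day 4, 14 at day 20, 11 for its change between days, 0 for sham against middle-aged TEC, 1 for castration in nonTEC at day 7, 40 for TEC against nonTEC in middle-aged mice and 0 for the ageing difference between fractions. Unoperated mice as control gave 0, 2 and 37 calls for castration in TEC at days 4, 7 and 20, and 28 and 17 in nonTEC at days 4 and 7. No filter gave 1 call for sham against middle-aged TEC and 2 for castration in nonTEC at day 4, and the stricter filter gave 3 for castration in TEC at day 4 and 1 for the castration difference between fractions, as did centring of arrays. The mean of all probes gave 7 calls for TEC ageing and 1 for sham against middle-aged nonTEC. Quantile normalization gave 65 calls for TEC against nonTEC in young mice, where the deposited values gave 41, and centring gave 45 higher and 12 lower. After seeing the data, sham in place of unoperated mice gave 12 calls for nonTEC ageing and 1 for TEC ageing, the thymocyte covariate gave 14 for nonTEC ageing, and leaving out the 4 TEC arrays gave 11 for TEC ageing, 0 and 1 for castration in TEC at days 4 and 7, 6 for sham against middle-aged TEC and 1 for the castration difference between fractions. Replicate numbers did not pair the arrays (correlations of same-numbered arrays from -0.172 to 0.261), and the replicate block gave 7 calls for TEC ageing and changed no other count by over 1.5 times. Of the named members, 14 results changed sign. With unoperated mice as control at day 20 these were Cox6a2 (-1.94), Cox4i1 (-0.25), Ndufab1 (-0.38), Ndufb8 (-0.17), Cox6b1 (-0.63), Cox7a1 (-1.33) and ATP6 (3.26). With the mean of all probes they were Ndufa5 (0.38) and Ndufaf4 (0.20) in sham TEC and Ndufaf4 (0.23) in castrated TEC at day 20. With sham in place of middle-aged nonTEC they were Cox6b2 (0.67) and Atp5g2 (0.019). In middle-aged TEC against nonTEC they were Cox4i1 under quantile normalization (0.50) and Atp5g3 without middle-aged TEC replicate 2 (0.30), whose values without 1 array ran from -0.41 to 0.30. The cause of these changes was not tested. The number of arrays, 2 or 3 in a group, limits what can be called.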
